A study of Rattus norvegicus with 24 samples.

Results

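The amyloid precursor gene App, its family members Aplp1 and Aplp2, the secretase genes Bace1 and Psen2, the tau gene Mapt and the ubiquitin hydrolase gene Uchl1 were followed in 24 RNA-seq libraries of rats. These 7 genes were taken by symbol from the expression table, where each has a single row of its own, so they make up 7 of 17711 rows. The values are FPKM (fragments per kilobase of transcript and per unit of mapped fragments), so levels of different genes can be set side by side. App, Aplp1 and Aplp2 encode membrane proteins of 1 family, of which App alone contains the amyloid beta peptide. Cleavage of App by beta-secretase (Bace1) and then by gamma-secretase, of which Psen2 is a catalytic subunit, releases amyloid beta, whereas alpha-secretases such as Adam10 cut within that peptide. Tau, the product of Mapt, binds axonal microtubules, and Uchl1 is an abundant deubiquitinating enzyme of neurons whose protein, also called PGP9.5, is a usual stain for nerve fibers in skin.

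The rats were male Sprague-Dawley rats that had a venous catheter and pressed a lever for infusions in daily sessions. There were 4 groups of 6 libraries, which were striatum of rats that self-administered methamphetamine (MA), striatum of rats that self-administered saline (SA), whisker follicle of MA rats and whisker follicle of SA rats. The striatum receives the cortical and dopamine input of the basal ganglia, the whisker follicle is the innervated hair follicle of the snout, and both tissues came from the same rats. All rats had first learned to press a lever for food, and their age is not given in the sources used here. The libraries carry an index of 0 to 5 that is not tied to a rat, so they are named by it (MA library 3), and the tissues of a rat were not paired. Within a tissue the p-values below set a difference against the spread between libraries of a group, which come from different rats. Between tissues they treat the libraries as independent.

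The summed FPKM of a library ranged from 348717 to 418892 in the striatum and from 774567 to 1524570 in the whisker follicle, where the 10 most abundant genes took 27.1% to 44.0% of it. FPKM carries no read counts, so the depth and the counting error behind a value are unknown. The 10 striatal neuron markers, among them the dopamine receptor genes Drd1 and Drd2, summed to 2448 to 5986 FPKM in the striatum and to 2.30 to 26.4 FPKM in the follicle. The 10 hair and keratinocyte genes found in the table summed to 4.71 to 30.5 FPKM in the striatum and to 69986 to 123472 FPKM in the follicle, so both tissue labels fit their markers. Striatum SA library 2 alone held the 30.5 FPKM, and striatum MA library 5 came next at 10.5 FPKM. A follicle library stood apart in brain markers. SA library 5 held 26.4 FPKM of the striatal markers and 79.7 FPKM of the oligodendrocyte markers, against at most 6.17 FPKM and 15.3 FPKM in the other 11 follicle libraries. Another follicle library, SA library 0, changes several MA and SA comparisons below when left out, and values without it are given there. Its erythrocyte markers summed to 3.38 FPKM, against 117 to 427 FPKM in the other SA follicles and 7.18 to 468 FPKM in MA follicles. Its melanocyte markers summed to 72.7 FPKM, against 19.6 to 38.1 FPKM in the other SA follicles and 25.3 to 65.4 FPKM in MA follicles. Of the erythrocyte markers 0 of 4 had a follicle log2 fold change above 0, MA over SA (median -0.78). Of the melanocyte markers 4 of 4 had (median 0.29). The part of these lists was not tested.

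App, Aplp1 and Uchl1 were among the most abundant transcripts of the striatum. In the mean of its 12 libraries, Aplp1 ranked 39th, Uchl1 51st and App 88th of 17711 rows. The order of the 7 genes in the striatum was Aplp1, Uchl1, App, Aplp2, Mapt, Bace1 and Psen2, and the ranges of the neighbours Aplp1 and Uchl1, Uchl1 and App, and Bace1 and Psen2 overlapped. In the follicle App ranked 554th, followed by Aplp2, Uchl1, Aplp1, Psen2, Bace1 and Mapt, and the ranges of all neighbours in this order overlapped except those of Psen2 and Bace1. Of the members, 5 of 7 were called (adjusted p under 0.05 by limma over all genes tested, and a fold of at least 1.5) between striatum and follicle of SA rats, against 75.3% of all 11533 genes tested, so a tissue difference was usual. In MA rats 6 of 7 were called, against 73.0% of all genes. More RNA per cell and more cells that express a gene cannot be told apart in such bulk samples.

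The promoters of the family members and of Uchl1 are shown as a description, and their part in the tissue levels was not tested. Promoters of 250 bases before to 50 bases after the gene start were taken from RefSeq (rat build GRCr8), which gave 6 of the 7 members, all but Mapt. They are for App chr11:37722789-37723088, for Aplp1 chr1:94834561-94834860, for Aplp2 chr8:37919982-37920281 and for Uchl1 chr14:41849368-41849667, each from the minus strand and written 5′ to 3′. Capitals mark a GC box (GGGCGG) or a TATA box (TATAAA), searched on both strands, so that TTTATA in Uchl1 is a TATA box of the other strand.
App: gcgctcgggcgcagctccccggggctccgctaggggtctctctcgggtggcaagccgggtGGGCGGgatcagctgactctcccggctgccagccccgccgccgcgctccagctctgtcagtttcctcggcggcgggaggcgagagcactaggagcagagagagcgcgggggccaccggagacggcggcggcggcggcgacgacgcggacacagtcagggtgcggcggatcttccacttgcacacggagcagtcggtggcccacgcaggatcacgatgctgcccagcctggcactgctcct
Aplp1: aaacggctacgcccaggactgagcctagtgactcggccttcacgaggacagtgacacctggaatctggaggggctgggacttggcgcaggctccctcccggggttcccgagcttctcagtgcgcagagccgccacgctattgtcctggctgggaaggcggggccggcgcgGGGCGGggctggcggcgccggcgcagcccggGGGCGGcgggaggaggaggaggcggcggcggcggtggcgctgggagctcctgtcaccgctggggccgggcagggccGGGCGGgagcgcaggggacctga
Aplp2: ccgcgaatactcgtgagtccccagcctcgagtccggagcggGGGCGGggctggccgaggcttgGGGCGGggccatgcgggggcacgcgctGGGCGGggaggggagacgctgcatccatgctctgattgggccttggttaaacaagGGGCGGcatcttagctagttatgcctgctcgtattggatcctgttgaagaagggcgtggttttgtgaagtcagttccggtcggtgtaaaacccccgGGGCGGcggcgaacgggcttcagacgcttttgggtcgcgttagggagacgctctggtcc
Uchl1: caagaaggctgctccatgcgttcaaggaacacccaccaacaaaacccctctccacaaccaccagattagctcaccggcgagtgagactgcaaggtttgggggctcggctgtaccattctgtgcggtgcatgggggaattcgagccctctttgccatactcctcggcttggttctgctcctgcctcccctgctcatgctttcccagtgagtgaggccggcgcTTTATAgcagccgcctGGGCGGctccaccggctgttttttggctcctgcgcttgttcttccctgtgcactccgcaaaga
GC boxes numbered 1 in App, 3 in Aplp1, 5 in Aplp2 and 1 in Uchl1, whereas the windows of Bace1 and Psen2 held none. The motif occurs in 33.06% of the 33469 RefSeq promoters of this length. The TATA box letters were found only in the Uchl1 window among the 6 members, and in 14.22% of all promoters. The windows of App, Aplp1, Aplp2 and Uchl1 had a GC content of 72.67%, 74.67%, 64.33% and 58.67%, against a median of 51.67% over all promoters. The windows of Bace1 and Psen2 had 54.67% and 56.33%. A match of letters is a description of the sequence and not a binding site.

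**Figure D1:**
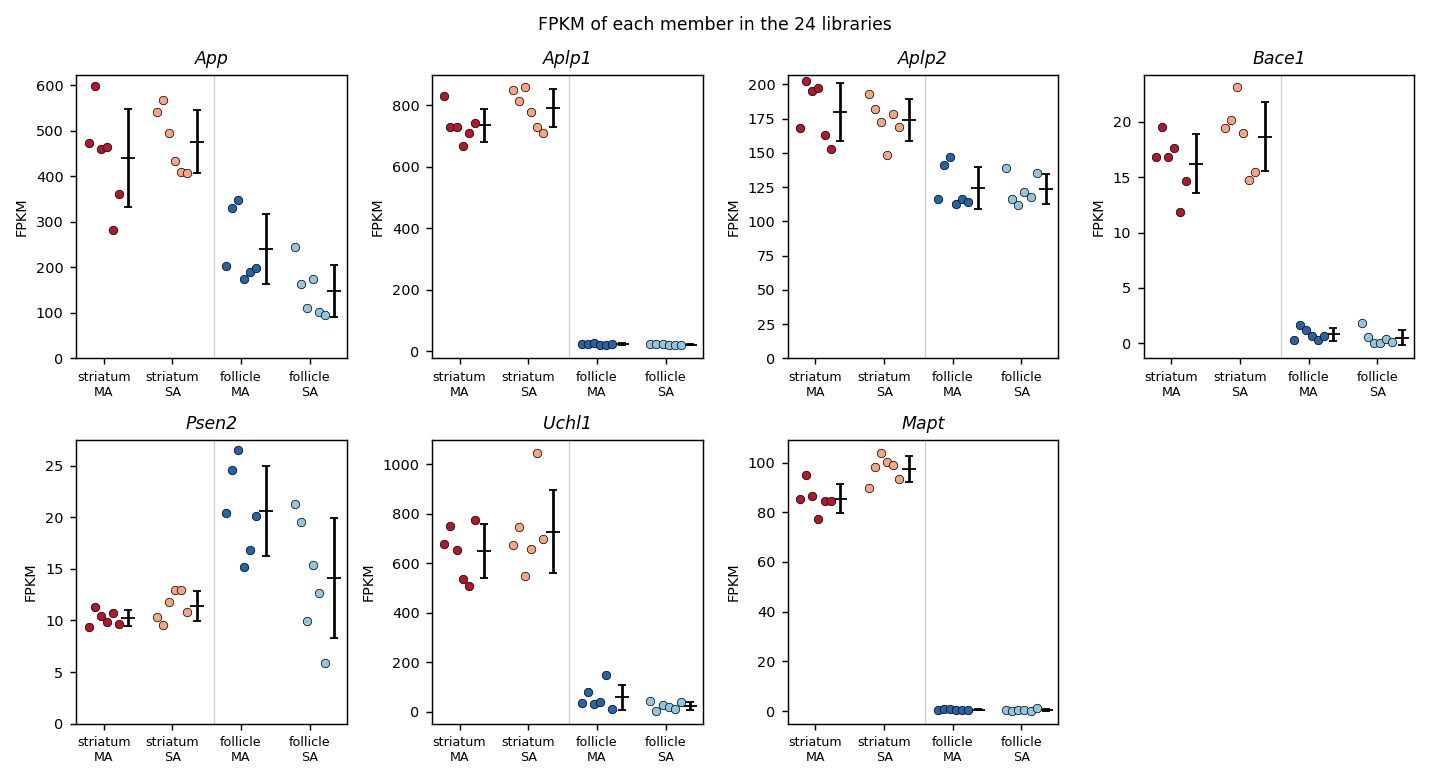
FPKM of each of the 7 genes (vertical axis, 1 panel per gene) in the 6 libraries of striatum MA, striatum SA, whisker follicle MA and whisker follicle SA, with the mean and SD beside the points. Aplp1, Uchl1, Mapt and Bace1 are near the bottom of their axis in every follicle library, App and Aplp2 are not, and Psen2 is the gene whose follicle MA libraries are above all striatum MA libraries.

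App, the source of amyloid beta, was abundant in both tissues. In SA rats it had 408, 464 and 568 FPKM (lowest, median and highest) in the striatum, against 95.6, 137 and 244 FPKM in the follicle. Every striatum library was above every follicle library, and in SA rats 67.8% of all genes tested had groups without overlap. The ratio of means was 3.20, and the log2 fold change on the log2(FPKM + 1) scale, which is used for all fold changes here, was 1.74 (limma adjusted p = 9.72e-08). In MA rats App had 282, 463 and 598 FPKM in the striatum, against 174, 202 and 348 FPKM in the follicle. Here the groups overlapped, since 1 striatum library was below the highest follicle libraries. The log2 fold change was 0.88 (limma adjusted p = 0.000804), but with libraries scaled to a common median it was 0.40 and no longer passed (adjusted p = 0.0604).

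Aplp1, the family member known to be expressed mainly by neurons, had the widest tissue difference of the family. It had 710, 797 and 859 FPKM in striatum of SA rats, against 18.6, 21.7 and 23.7 FPKM in their follicles. This is a 37.2-fold ratio of means and a log2 fold change of 5.15 (limma adjusted p = 3.49e-25). In MA rats it had 668, 730 and 831 FPKM in the striatum, against 21.1, 22.9 and 27.8 FPKM in the follicle, a log2 fold change of 4.92 (limma adjusted p = 7.53e-25). Striatum and follicle libraries did not overlap in either treatment, as for 67.8% of all genes tested in SA rats and 72.6% in MA rats.

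Aplp2, the broadly expressed member, was close between tissues. It had 149, 175 and 193 FPKM in striatum of SA rats, against 112, 120 and 139 FPKM in their follicles. The groups did not overlap, as for 67.8% of all genes tested. The adjusted p passed (6.12e-05, limma), but the log2 fold change of 0.49 was under the fold limit. In MA rats the striatum had 153, 182 and 202 FPKM, against 112, 116 and 147 FPKM in the follicle, a log2 fold change of 0.52. The direction of this difference depends on the scaling. Over all genes tested the median log2 fold change between striatum and follicle of SA rats was 0.30 as deposited, -0.07 after quantile normalization and -0.15 with a common median, and Aplp2 was at 1.33 and -0.05 under these 2 scalings. The calls over all genes split into 5052 higher and 3629 lower as deposited, 3906 and 4244 after quantile normalization, and 4103 and 4781 with a common median.

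The makeup of the family differed between the tissues. Of the summed FPKM of App, Aplp1 and Aplp2, Aplp1 made up 47.7% to 61.5% in striatum of MA rats and 52.1% to 57.3% in striatum of SA rats, against 4.76% to 6.95% in follicles of MA rats and 5.47% to 8.92% in follicles of SA rats. In the follicle App had a median share of 59.3% in MA rats and 49.6% in SA rats, and Aplp2 of 33.9% and 42.1%. App took the larger part in all 6 MA follicles and in SA libraries 0, 1 and 3, while Aplp2 did so in SA libraries 2, 4 and 5, at 45.8%, 49.4% and 54.0% against 45.2%, 42.8% and 38.1% for App. These shares are set within a library, so a constant factor per library does not touch them, but quantile normalization can. The App share overlapped between the treatments in the follicle, since SA library 0 reached 60.2%, above the lowest MA library at 56.6%. The other 5 SA libraries, at 38.1% to 55.1%, were below every MA library. That split sets aside a library after its value was seen, and it was not tested.

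**Figure D2:**
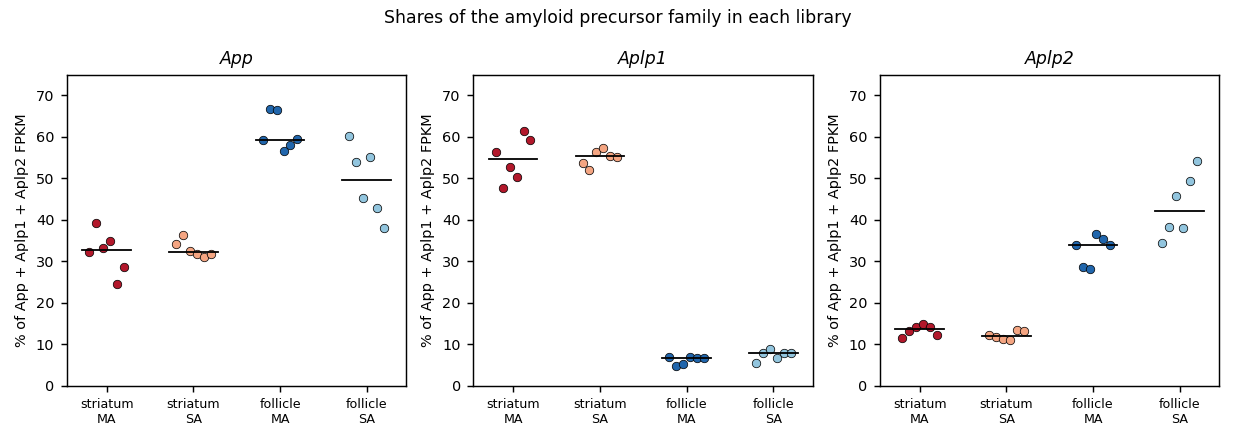
Share of App, Aplp1 and Aplp2 in the summed FPKM of the family (vertical axis, percent, 1 panel per gene) in each library of the 4 groups, with the median as a line. Aplp1 leads in the striatum, with medians of 54.5% in MA and 55.3% in SA, and has medians of 6.62% in MA and 7.79% in SA in the follicle.

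The beta-secretase genes took opposite sides. Bace1 had 14.8, 19.2 and 23.1 FPKM in striatum of SA rats, against 0, 0.235 and 1.81 FPKM in their follicles, where SA library 2 is listed at 0. The follicle was low in every library, also in MA rats, where Bace1 had 11.8, 16.8 and 19.6 FPKM in the striatum, against 0.254, 0.642 and 1.67 FPKM in the follicle. Striatum over follicle, the log2 fold change was 3.81 in SA rats (limma adjusted p = 1.78e-14) and 3.30 in MA rats, and this scale understates the change of a gene this low. Bace2, the paralog of Bace1, averaged 1.73 FPKM in the striatum and 52.8 FPKM in the follicle of MA rats, and 1.71 and 48.5 FPKM in SA rats. Its log2 fold change between striatum and follicle of SA rats was -4.18 (limma adjusted p = 5.70e-19), lower in the striatum.

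Psen2 had lower means in the striatum, as had the gamma-secretase subunits Ncstn, Psenen and Aph1a, while Aph1b was at or below 0.547 FPKM in every library and was not tested. Psen2 had 9.33, 10.1 and 11.3 FPKM in striatum of MA rats, against 15.2, 20.3 and 26.5 FPKM in their follicles. All striatum libraries were below all follicle libraries, and the log2 fold change was -0.92 (limma adjusted p = 0.000147). Groups did not overlap for 72.6% of all genes tested in MA rats, 30.6% with the striatum lower. In SA rats Psen2 had 9.57, 11.3 and 13.0 FPKM in the striatum, against 5.92, 14.0 and 21.3 FPKM in the follicle, and the groups overlapped (log2 fold change -0.19, limma adjusted p = 0.369). With a common median the SA difference also passed (-0.69, adjusted p = 0.00122). Ncstn, Psenen and Aph1a were all called lower in the striatum of SA rats, against 31.5% of all genes called lower.

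**Figure D3:**
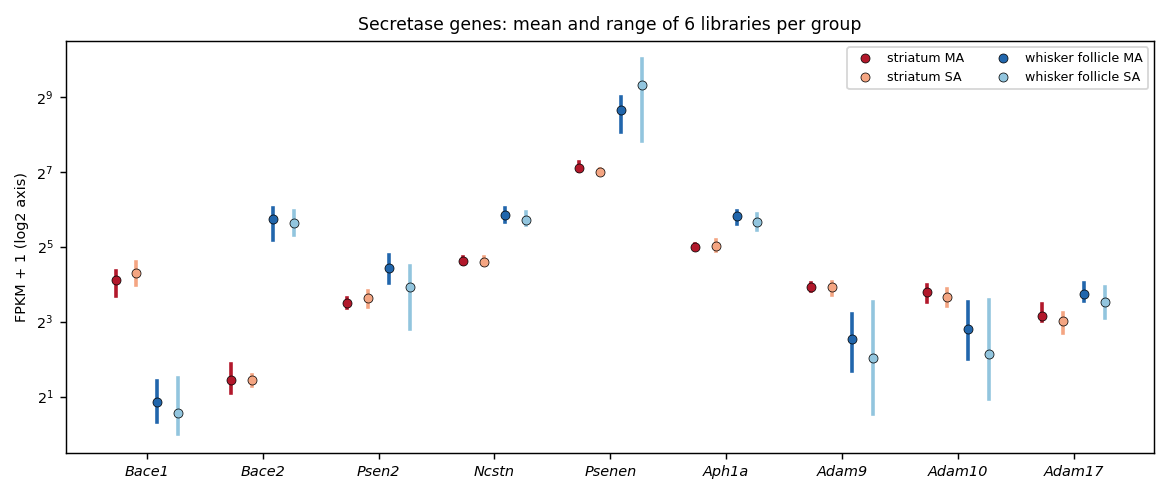
Mean (point) and range (line) of FPKM + 1, on a log2 axis, of the beta-secretase, gamma-secretase and alpha-secretase genes in the 6 libraries of each group. Bace1 is higher in the striatum, Bace2, Ncstn, Psenen and Aph1a are higher in the follicle, and the follicle ranges of Adam9 and Adam10 are wide.

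Mapt and Uchl1 were far higher in the striatum. Mapt had 89.6, 98.7 and 104 FPKM in striatum of SA rats, against 0.187, 0.475 and 1.35 FPKM in their follicles. The follicle value of 1.35 FPKM was that of SA library 5, the library with the brain markers, and their part in it was not tested. The log2 fold change was 6.03 (limma adjusted p = 2.02e-23), and in MA rats, with 77.2, 85.0 and 94.9 FPKM in the striatum against 0.406, 0.469 and 0.788 FPKM in the follicle, it was 5.80. Mapt was at trace level in every follicle library. Uchl1 had 550, 685 and 1047 FPKM in striatum of SA rats, against 4.09, 24.6 and 42.5 FPKM in their follicles. The ratio of means was 30.1 and the log2 fold change 5.16 (limma adjusted p = 2.02e-10), and no library overlapped, as for 67.8% of all genes tested. In MA rats Uchl1 had 508, 666 and 774 FPKM in the striatum, against 12.5, 38.0 and 148 FPKM in the follicle, a log2 fold change of 3.85. Tau and 7 other microtubule-associated protein genes were all called higher in the striatum of SA rats (8 of 8, median log2 fold change 3.81), against 43.8% of all genes called higher.

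Within the follicle, the MA effect on these genes was tested next. App, Psen2 and Uchl1 had higher means in MA follicles and none of them passed the test, while Aplp1 and Aplp2 were close between the treatments. None of the 5 members tested (Bace1 and Mapt averaged under 1 FPKM) was called by limma, and neither was any of the 9138 genes tested (0% called). At an unadjusted p under 0.05, App and Psen2 passed, as did 10.4% of all genes and 5.25% in the higher direction. App and Uchl1 are genes that the study itself singled out from these same follicle libraries, so these values are not independent evidence of their direction.

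App had 174, 202 and 348 FPKM in MA follicles, against 95.6, 137 and 244 FPKM in SA follicles. MA libraries 1 and 2 (329 and 348 FPKM) were above every SA library, the other 4 MA libraries lay at 174 to 204 FPKM, and all 6 MA libraries were above the SA median. SA library 0, at 244 FPKM, was higher than 4 of the 6 MA libraries. The means were 241 ± 76.4 and 149 ± 57.3 FPKM in MA and SA follicles (SD, n = 6 each), a ratio of 1.62. On the log2 scale the fold change was 0.72 (95% CI 0.17 to 1.27, limma p = 0.0142 before and 0.465 after adjustment, exact permutation p = 0.0411). The exact permutation test is two-sided and unadjusted, was run for each of the 7 genes in each comparison, and cannot give a p below 0.00216.

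Psen2 had 15.2, 20.3 and 26.5 FPKM in MA follicles, against 5.92, 14.0 and 21.3 FPKM in SA follicles. The groups overlapped, with SA library 0 highest among the SA libraries and SA library 5 lowest. The means were 20.6 ± 4.32 and 14.1 ± 5.81 FPKM in MA and SA follicles (SD, n = 6 each), and the log2 fold change was 0.59 (95% CI 0.04 to 1.15, limma p = 0.0370, adjusted p = 0.465, exact permutation p = 0.0606).

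Uchl1 varied widely between follicle libraries. It had 12.5, 38.0 and 148 FPKM in MA follicles, against 4.09, 24.6 and 42.5 FPKM in SA follicles. MA libraries 4 (148 FPKM) and 1 (81.6 FPKM) were above every SA library, and the remaining 4 MA libraries, at 12.5 to 41.2 FPKM, were within the SA range. The means were 58.1 ± 49.5 and 24.2 ± 15.5 FPKM in MA and SA follicles (SD, n = 6 each), a ratio of 2.40. The log2 fold change was 1.16 (95% CI -0.15 to 2.47, limma adjusted p = 0.465, exact permutation p = 0.128). Without MA library 4 it was 0.82, and without SA library 1, the lowest, it was 0.77.

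The other family members were close between the treatments. Aplp1 had 21.1, 22.9 and 27.8 FPKM in MA follicles, against 18.6, 21.7 and 23.7 FPKM in SA follicles, a log2 fold change of 0.13 (95% CI -0.07 to 0.34, limma adjusted p = 0.512). Aplp2 had 112, 116 and 147 FPKM in MA follicles, against 112, 120 and 139 FPKM in SA follicles, a log2 fold change of 0.01 (95% CI -0.22 to 0.23, limma adjusted p = 0.985). The groups of both genes overlapped, although for Aplp1 MA libraries 2 and 0 were above every SA library and SA libraries 4 and 5 were below every MA library. The interval of Aplp2 leaves out a change of the size estimated for App, but it overlaps the interval of App (0.17 to 1.27). The difference between these genes was not tested. Bace1 had 0.254 to 1.67 FPKM in MA follicles, against 0 to 1.81 FPKM in SA follicles (exact permutation p = 0.279), and Mapt 0.406 to 0.788 FPKM, against 0.187 to 1.35 FPKM (exact permutation p = 0.794).

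**Figure D4:**
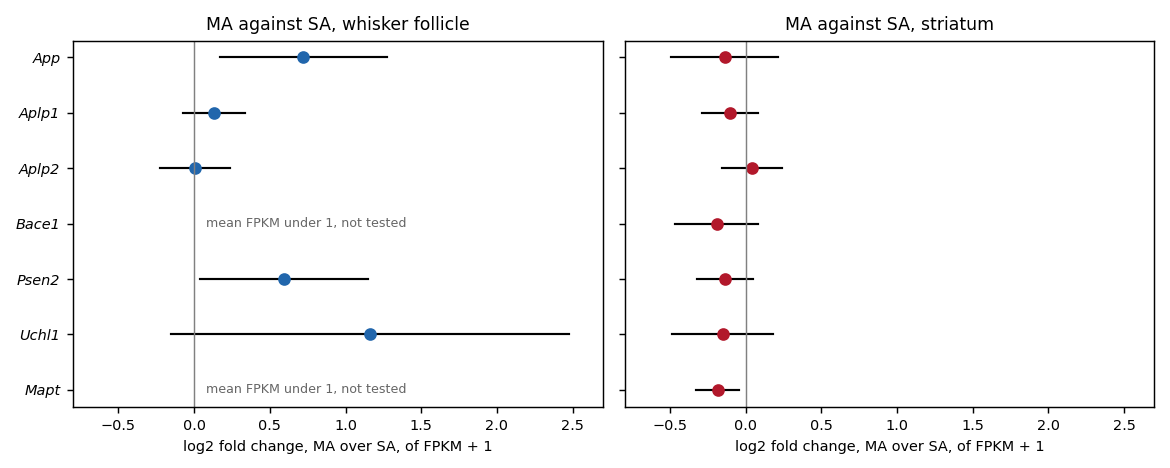
Log2 fold change of FPKM + 1, MA over SA (horizontal axis), with its 95% confidence interval, of each member in the whisker follicle (left) and the striatum (right). In the follicle the intervals of App and Psen2 lie above 0 before adjustment and that of Uchl1 is the widest, and in the striatum only the interval of Mapt lies off 0, on the lower side.

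App, Aplp2, Bace1 and Psen2 shared their high libraries in the follicle. MA library 1, MA library 2 and SA library 0 held the 3 highest values of each of these genes among the 12 follicle libraries, with App at 329, 348 and 244 FPKM and Psen2 at 24.5, 26.5 and 21.3 FPKM. SA libraries 2, 4 and 5 held the 3 lowest values of App and of Psen2. Uchl1 was highest in MA library 4, followed by MA library 1 and SA library 0, and Aplp1 in MA library 2, followed by MA library 0 and SA library 1. The summed FPKM was 774567 in MA library 1, 949648 in MA library 2 and 1042630 in SA library 0, and 1005810 to 1524570 in the other 9. The 12 neuron and axon markers, mostly Tubb3, summed to 17.8, 23.7 and 16.6 FPKM in the 3 libraries and ranged from 17.8 to 30.3 FPKM over MA follicles and from 16.6 to 40.7 FPKM over SA follicles. The hair and keratinocyte score (median deviation of the listed genes from their mean over the 12 libraries, on the log2 scale) was 0.03 to 0.47 in MA follicles and 0.44 in SA library 0, and -0.93 to -0.06 in the other 5 SA follicles. The score was higher in MA than in SA follicles apart from SA library 0. Among the MA follicles, libraries 1 and 2 were at 0.03 and 0.18, and library 3, with the lowest App, was at 0.47. Among the SA follicles, library 0 was highest in both App and score, and library 5, with the lowest App, was at -0.83. SA library 3, second in App among them at 175 FPKM, had the lowest score, -0.93. Of the 10 genes of this score, 8 had a log2 fold change above 0. The list summed to 73890 to 123472 FPKM in MA follicles and 69986 to 105639 FPKM in SA follicles. The part of these measures in the App and Psen2 values was not tested.

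The calls depended on SA library 0 and on the weighting of the libraries. Without it, App had a log2 fold change of 0.88 (limma adjusted p = 0.0237) and Psen2 of 0.73 (adjusted p = 0.0493), and both were called, along with 13.5% of the 9059 genes then tested (7.41% higher). With every library kept but weighted by its estimated precision, both were called as well. App was then at 0.83 (limma adjusted p = 0.0156) and Psen2 at 0.72 (adjusted p = 0.0222), with 12.7% of all genes called. Leaving out any of the other 11 follicle libraries gave no call for a member. Over all 12 such fits the log2 fold change was 0.60 to 0.88 for App, 0.39 to 0.73 for Psen2 and 0.77 to 1.51 for Uchl1. Without SA library 5 App was at 0.61 and Psen2 at 0.39. App was at 0.86 after quantile normalization and at 0.71 with a common median.

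**Figure D5:**
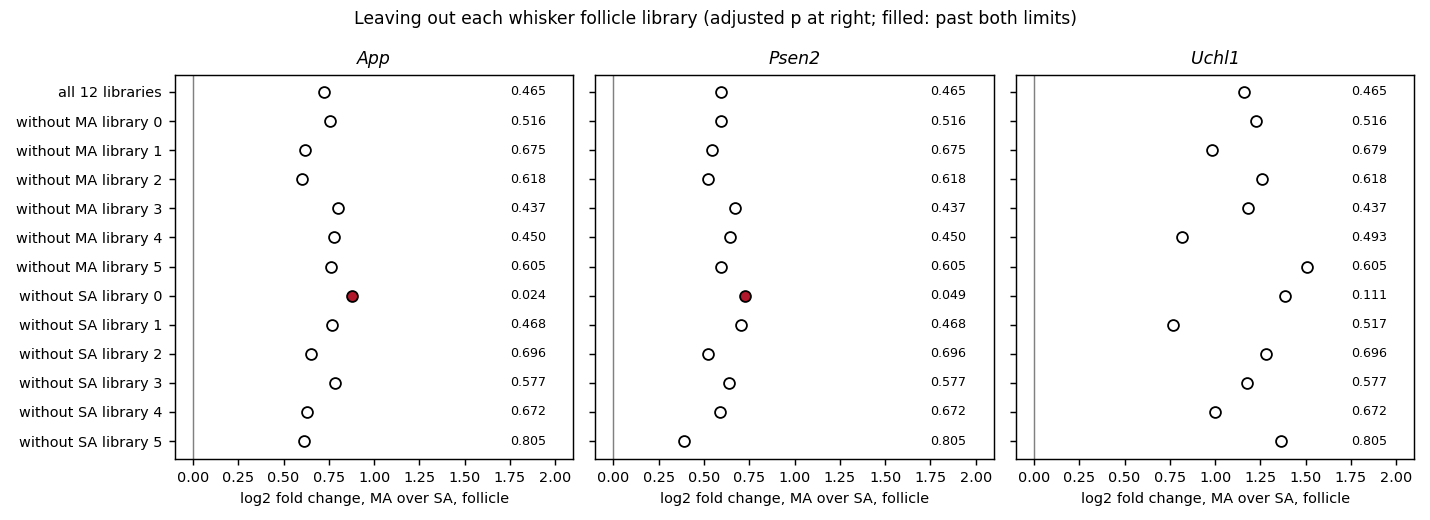
Log2 fold change, MA over SA, of App, Psen2 and Uchl1 in the whisker follicle (horizontal axis) with all 12 libraries and without each library in turn (rows), with the limma adjusted p at the right and filled points where both limits were passed. Only the points of App and Psen2 without SA library 0 are filled, and every point lies above 0.

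In the striatum the members were close between MA and SA rats. None of the 7 was called by limma, against 0.00943% of the 10607 genes tested (1 gene). At an unadjusted p under 0.05, Mapt passed in the lower direction, as did 2.88% of all genes. Mapt had 77.2, 85.0 and 94.9 FPKM in striatum of MA rats, against 89.6, 98.7 and 104 FPKM in striatum of SA rats. Of the 6 MA libraries 5 were below every SA library, and MA library 1 lay within the SA range. The log2 fold change was -0.19 (95% CI -0.33 to -0.05, limma p = 0.0133, adjusted p = 0.577), and the exact permutation p was 0.00649, unadjusted. It was -0.22 to -0.16 without each library in turn.

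App had 282, 463 and 598 FPKM in striatum of MA rats, against 408, 464 and 568 FPKM in striatum of SA rats, with nearly equal medians and a wider spread in MA rats. Its log2 fold change was -0.14 (95% CI -0.49 to 0.21, limma adjusted p = 0.833). Uchl1 had 508, 666 and 774 FPKM in striatum of MA rats, against 550, 685 and 1047 FPKM in striatum of SA rats, a log2 fold change of -0.15 (95% CI -0.49 to 0.18, limma adjusted p = 0.801). The groups of both genes overlapped. Aplp1, Bace1 and Psen2 had log2 fold changes of -0.11, -0.19 and -0.14, and Aplp2 of 0.04, all with overlapping groups, limma adjusted p between 0.665 and 0.920 and exact permutation p between 0.110 and 0.626. The microglia and macrophage markers summed to 195 to 590 FPKM in striatum of MA rats and 235 to 357 FPKM in striatum of SA rats, 8 of 8 with a log2 fold change above 0 and none at 0 in all libraries, and the striatal neuron markers to 2448 to 5673 FPKM and 2491 to 5986 FPKM, 5 of 10 above 0. The neuron and axon markers summed to 1013 to 1860 FPKM in striatum of MA rats and 1373 to 1955 FPKM in striatum of SA rats, 2 of 12 above 0 with a median log2 fold change of -0.24, beside -0.19 for Mapt. The erythrocyte markers found summed to 606 to 5376 FPKM in striatum of MA rats and 339 to 850 FPKM in striatum of SA rats. Of these markers, 4 of 4 were above 0 with a median of 1.12. The 5376 FPKM was that of MA library 3 alone, and MA library 4 came next at 1736 FPKM. Above 0 were also 5 of 6 astrocyte, 6 of 6 endothelium and 6 of 6 smooth muscle and pericyte markers. Of the fibroblast and matrix markers 5 of 7 were above 0 (1 was at 0 in all libraries), and of the oligodendrocyte markers 2 of 8. Among all genes tested 50.5% were above 0. The part of these lists in the members' values was not tested.

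Whether MA acted differently on a gene in striatum and follicle was tested with the interaction term of the fit of all 24 libraries. For App the MA effect in the striatum minus that in the follicle was -0.86 on the log2 scale (SE 0.31, limma adjusted p = 0.433), for Psen2 -0.73 (SE 0.28, limma adjusted p = 0.433) and for Uchl1 -1.31 (SE 0.66, limma adjusted p = 0.460). None of the 7 members was called, against 0.00867% of the 11533 genes tested (1 gene), while App and Psen2 were among the 11.1% of all genes with an unadjusted p under 0.05. SA follicle library 0 decided this comparison as well. Without it App was at -1.02 (limma adjusted p = 0.0240) and Psen2 at -0.87 (adjusted p = 0.0313), and 10.8% of all genes were called.

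The other genes of App processing were read from lists of the pathway, and no gene of any of the 9 lists was called between MA and SA in either tissue. In the follicle all 3 alpha-secretase genes had a log2 fold change above 0, as had 48.3% of all genes tested, with a list median of 0.77 against -0.01 over all genes. Adam10 averaged 5.96 ± 2.78 FPKM in MA follicles and 3.42 ± 3.82 FPKM in SA follicles (SD, n = 6 each), a log2 fold change of 0.88 (limma adjusted p = 0.465). Adam9 was at 0.77 and Adam17 at 0.24. Of the 4 gamma-secretase subunits tested 3 were above 0. The exception was Psenen, the activating subunit, with 403 ± 94.0 FPKM in MA follicles and 632 ± 276 FPKM in SA follicles (SD, n = 6 each, log2 fold change -0.54, limma adjusted p = 0.466).

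Among the adaptors and sorting receptors of App, 5 were above 0 and 6 below in the follicle (median -0.10), and the smallest p were those of Klc1, a kinesin light chain, and Numb, an endocytic adaptor, at 0.44 and 0.86. In the striatum 12 of 16 were above 0, against 50.5% of all genes tested (median 0.09), with Lrp1, an endocytic receptor that binds App, at 0.23, Dab1, a reelin pathway adaptor, at 0.28 and Mapk8ip1, a kinase scaffold, at 0.25 (limma adjusted p 0.577 to 0.597). The amyloid beta degrading enzymes had a median of 0.25 over 3 genes in the follicle and -0.08 over 4 genes in the striatum. Ide, the insulin-degrading enzyme, which also breaks down amyloid beta, averaged 5.00 FPKM in the striatum and 22.3 FPKM in the follicle of MA rats, and 5.11 and 19.6 FPKM in SA rats (log2 fold change in SA rats -1.68, limma adjusted p = 4.06e-10). Of the tau kinase and phosphatase genes 11 of 13 were above 0 in the follicle (median 0.14), led by the smallest p of Mark3, a tau kinase, at 0.22, and 8 of 14 in the striatum (median 0.02). The microtubule-associated protein genes had medians of -0.19 over 4 genes in the follicle and -0.11 over 8 genes in the striatum.

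Around Uchl1, the ubiquitin genes differed among themselves. Ubb, a polyubiquitin gene, averaged 490 ± 187 FPKM in MA follicles and 259 ± 32.5 FPKM in SA follicles (SD, n = 6 each). Its lowest MA library, at 310 FPKM, was above the highest SA library, at 289 FPKM, a separation that 0.482% of all genes had. The log2 fold change was 0.84 with a limma p of 0.00182, and it did not pass after adjustment (adjusted p = 0.465). Rps27a, which encodes ubiquitin fused to a ribosomal protein, averaged 10.7 ± 5.15 FPKM in MA follicles and 24.05 ± 10.6 FPKM in SA follicles (SD, n = 6 each), a log2 fold change of -1.03 (limma adjusted p = 0.465). In the striatum the smallest p of the list was that of Bap1, another hydrolase of the family of Uchl1, with 57.9 ± 7.11 FPKM in MA rats and 47.0 ± 6.46 FPKM in SA rats (SD, n = 6 each, log2 fold change 0.30, limma adjusted p = 0.577). Uchl5, a proteasome-bound hydrolase of the same family, had an opposite tissue pattern to Uchl1, with means of 4.31 FPKM in the striatum and 17.3 FPKM in the follicle of MA rats, and 4.56 and 18.7 FPKM in SA rats (log2 fold change in SA rats -1.81, limma adjusted p = 1.12e-10).

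The genes most like App and Uchl1 across libraries were listed by Pearson r of log2(FPKM + 1), as a description. In the 12 follicle libraries, among 6421 genes with a mean of at least 5 FPKM, App was most like Cuedc1 (r = 0.97), Jkamp (0.97), Dmkn (0.97), Ptprs (0.97) and Pdzrn3 (0.97). Dmkn encodes dermokine, a secreted protein of the epidermis, and Ptprs a receptor tyrosine phosphatase. Dmkn averaged 615 FPKM in MA follicles and 342 FPKM in SA follicles. Removing the treatment means left r at 0.95 to 0.97. Uchl1 was most like Tmed4 (0.90), Tgfbi (0.90), Tagln (0.89), Phyhipl (0.87) and Rab3b (0.86). Tagln encodes transgelin, an actin-binding protein of smooth muscle, and its 137 and 127 FPKM in MA libraries 4 and 1 were the 2 highest of the follicle, as were the Uchl1 values there. The 6 smooth muscle and pericyte markers summed to 16.1 to 142 FPKM in MA follicles and 23.8 to 71.4 FPKM in SA follicles. This sum was mostly Tagln itself, which averaged 72.5 and 44.5 FPKM in MA and SA follicles. Acta2, the next highest of the 6, averaged 1.84 and 1.18 FPKM. Of the 6 markers, 3 had a log2 fold change above 0, and their part in Uchl1 was not tested.

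In the 12 striatum libraries, among 7604 genes, App was most like Amigo1 (r = 0.99), Dhx8 (0.98), Tmem181 (0.98), Nsf (0.97) and Tspyl4 (0.97), and Uchl1 most like Mllt11 (0.97), Pld3 (0.97), B4galnt4 (0.96), Tspyl2 (0.95) and RGD1311899 (0.95). Amigo1 encodes a neuronal adhesion protein and Nsf the ATPase that takes SNARE complexes apart after vesicle fusion. No gene was named for both tissues. Points of such a correlation share the depth and the tissue makeup of their library, which FPKM does not remove.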

How the data were processed

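RNA from striatum and whisker follicle of 6 MA and 6 SA rats gave 24 libraries. FPKM values were computed by the authors and deposited as 1 table, with 17711 rows and no read counts. Cutadapt, TopHat2, rn6 and Cufflinks are the tools of the paper, and bcl2fastq, STAR 2.6.0c and Cufflinks 2.2.1 with rn6 those of the submitters' processing notes. The annotation is not given in the sources used here. Columns were mapped to tissue and treatment by name, and none was left out. No libraries of a group were identical. The lowest Pearson r of log2(FPKM + 1) between libraries of a group was 0.850 in SA follicles. It was 0.958 in MA follicles, 0.940 in striatum of MA rats and 0.953 in striatum of SA rats.

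For MA against SA, each tissue was fitted separately with limma 3.58.1 (R 4.3.3, trended empirical Bayes) on log2(FPKM + 1), keeping genes that averaged 1 FPKM or more there. The tissue contrasts and the interaction came from a single fit of the 4 groups, over genes reaching that mean in either tissue. Calls needed a Benjamini-Hochberg adjusted p under 0.05 over all genes tested and a fold of at least 1.5. Single members were also compared by an exact permutation test (Python 3.11.15), two-sided. The scripts were tested on simulated data.

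The text names the 7 members, the 5 genes most like App and Uchl1 in each tissue, and up to 3 genes per pathway list and tissue with the smallest p. Further list genes, such as Bace2, Ncstn, Aph1a, Ide and Uchl5, were named after their values were seen. A listed gene is not reported here and was left out of its list. The members and lists were chosen with earlier results of these data known. Where a listed symbol had several rows, the row with the highest mean was used, and rows that join symbols counted for each. Promoters are from RefSeq (GRCr8), and no rn6 coordinates were used. The alternatives were other pseudocounts, filters, scalings, no trend, weighted libraries, other call rules, the log2 ratio of group means and fits without each library.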

Additional observations from a re-analysis of the deposited data

Results flagged for a closer look

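Dixon's rule was applied to the FPKM of the 7 members in the 4 groups of 6 libraries (28 gene and group pairs) and gave 2 flags. For normally distributed values chance alone flags about 1 in 20 groups, so this number of flags is no result by itself. Both flags are at low FPKM. In whisker follicles of SA rats, Bace1 was at 1.81 FPKM in library 0, far above the other 5 libraries. SA library 0 was also the SA library with the highest App, Aplp2, Psen2 and Uchl1. In the same group, Mapt was at 1.35 FPKM in library 5, the library with 26.4 FPKM of striatal neuron markers. This sum is 0.547% of the striatum median for these markers, and the Mapt value is 1.48% of the striatum median for Mapt.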

How the results depend on the processing

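Most member values kept their direction and their side of the limits. Aplp2 was at -0.047 in the striatum after quantile normalization and at -0.00135 to 0.088 without each library, at -0.00708 in the follicle with a common median and at -0.043 to 0.040 without each library, at -0.050 between tissues of SA rats with a common median, and at -0.18 for the interaction after quantile normalization and -0.00658 to 0.086 without each library. In the striatum the 1 called gene became 0 at a mean FPKM of at least 5, 62 by unadjusted p with the fold, and 0 to 4 without each library. In the follicle the 0 called genes became 1160 with weighted libraries, 336 by unadjusted p with the fold, and 0 to 1219 without each library, and the 0 members became 2, 2 and 0 to 2. For the interaction the 1 called gene became 2 at a pseudocount of 0.1, 3 with no filter, 0 at a mean FPKM of at least 5, 1380 with weighted libraries, 616 by unadjusted p with the fold, and 1 to 1241 without each library, and the 0 members became 3 with weighted libraries, 2 by unadjusted p with the fold and 0 to 2 without each library. The cause was not tested. No paired analysis was possible because the column index is not tied to a rat number. FPKM carries no counts, so depth limits on single values could not be given, and low values such as Bace1 and Mapt in the follicle are the least certain.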
